A study of Homo sapiens with 27 samples.

Results

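The plasminogen activator genes PLAU and PLAT, the receptor gene PLAUR and the inhibitor genes SERPINE2 and SERPINB2 were followed through 5 states of IMR90, a human fibroblast line of fetal lung origin. They were chosen by name, with earlier results of these data known, and matched to the deposited gene identifiers. The 5 members stand among 60534 identifiers counted in every library. Each state was measured by RNA-seq, which gives the mRNA level of a gene, and by ribosome profiling (Ribo-seq), which sequences the mRNA fragments covered by ribosomes and so reflects both the mRNA present and its translation. There were 13 RNA-seq and 14 Ribo-seq libraries, by the assay that each sample title names. For the thapsigargin libraries a second label field conflicts with this, as it describes every one of them as footprints. The title was followed there, and all thapsigargin results below depend on that choice. The genotype is given as wild type for all libraries except the thapsigargin ones, for which none is given. The states were untreated cycling cells (2 RNA-seq and 3 Ribo-seq libraries), cells made quiescent by contact inhibition (3 and 3), cells made senescent with 15 Gy of ionizing radiation and harvested after 10 days (3 and 3), cells made senescent by 3 treatments with 50 µM etoposide over 10 days (3 and 3), and cycling cells given 25 nM thapsigargin for 3 h (2 and 2). Etoposide blocks topoisomerase II and breaks DNA, and thapsigargin drains calcium from the endoplasmic reticulum and disturbs protein folding there. All states come from 1 cell line, and the labels do not say whether libraries of a state came from separate cultures, so p-values measure only the spread between these libraries, which may be technical.

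PLAU encodes urokinase and PLAT encodes tissue plasminogen activator, the secreted serine proteases that cut plasminogen into plasmin. Plasmin dissolves fibrin, cuts proteins of the extracellular matrix, and releases or activates growth factors and other proteases. PLAUR encodes the urokinase receptor, a protein held in the membrane by a lipid anchor, which keeps urokinase activity at the cell surface and binds vitronectin. SERPINE2 encodes protease nexin-1, a secreted serpin that inhibits thrombin, urokinase, tissue plasminogen activator and plasmin. SERPINB2 encodes plasminogen activator inhibitor 2, a serpin of which a large part stays inside the cell. Senescent fibroblasts are known to secrete proteases and protease inhibitors as part of the senescence-associated secretory phenotype.

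Promoter windows from RefSeq (GRCh38.p14), covering 250 bases before an annotated transcript start, were found for 4 members. The windows of SERPINB2, on the plus strand at chr18:63887455-63887704, and of PLAUR, on the minus strand at chr19:43670170-43670419, are shown because each holds an AP-1 element, the site of the Fos and Jun factors, and because SERPINB2 mRNA had the widest range over the states. Both are written 5′ to 3′ in the direction of the gene, and capitals mark an AP-1 element (TGANTCA) and, in SERPINB2, a TATA element (TATAAA).
SERPINB2: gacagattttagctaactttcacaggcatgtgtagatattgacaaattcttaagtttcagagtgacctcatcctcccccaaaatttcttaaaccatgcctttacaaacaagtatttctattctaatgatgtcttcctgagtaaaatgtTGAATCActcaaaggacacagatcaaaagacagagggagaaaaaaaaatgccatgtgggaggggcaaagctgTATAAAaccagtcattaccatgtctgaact
PLAUR: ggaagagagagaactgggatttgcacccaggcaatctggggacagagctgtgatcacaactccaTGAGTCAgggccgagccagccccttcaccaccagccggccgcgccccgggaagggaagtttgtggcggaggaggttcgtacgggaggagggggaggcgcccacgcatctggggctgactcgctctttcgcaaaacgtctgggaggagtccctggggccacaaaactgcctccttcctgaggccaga
The AP-1 element starts at base -102 before the transcript start in SERPINB2 and at base -186 in PLAUR, and the TATA element of SERPINB2 starts at base -30. The G and C content was 37.2% in the SERPINB2 window and 63.2% in the PLAUR window, against a median of 58.0% over 35114 windows of the same length. An AP-1 element occurred in 6.57% of those windows and TATAAA in 10.7%, with both strands searched and no overlap between these elements in either sequence. Elements found in the windows of the other members were GC boxes (GGGCGG, in 42.6% of all windows) and CCAAT boxes (CCAAT, in 32.0%). One PLAU window held 3 GC boxes, starting at bases -66, -51 and -40, and 1 SERPINE2 window held 7 CCAAT boxes over both strands. A cAMP response element (TGACGTCA), an ATF4 composite element (TGATGNAA) and an NF-kB element were searched as well and were in none of the 6 windows. These matches describe letters in a window and say nothing about binding.

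Total gene counts, in 1e6, were 20.6 to 57.1 in the RNA-seq libraries and 1.94 to 20.0 in the Ribo-seq libraries, and levels are given as counts per 1e6 counts after TMM scaling (CPM), which compares a gene between libraries and not 1 gene with another. Scaling sets the average change of all genes near 0, and in such bulk samples a change in every cell and a change in the share of cells that express a gene cannot be told apart. All 10 fibroblast markers were present, with a summed level of 9324 to 15113 CPM over the RNA-seq libraries. In Ribo-seq that sum was 12750 to 13283 CPM under thapsigargin, against 36166 to 38337 in cycling cells and 18113 to 38778 in the other states. The epithelial markers EPCAM, CDH1 and KRT5 stayed under 1 CPM in every RNA-seq library, and the endothelial markers summed to at most 2.62 CPM. The blood cell markers summed to 1.36 to 1.67 CPM in etoposide-treated cells and to at most 0.313 CPM in the other states in RNA-seq, and to 1.57 to 3.25 and at most 1.14 CPM in Ribo-seq, and the part of this difference in the etoposide results was not tested. KRT19 reached 96.3 CPM under thapsigargin and brought the epithelial sum there to between 89.7 and 97.1 CPM, against 2.52 to 22.5 CPM in the other states. The thapsigargin libraries also stood apart in unmapped RNA-seq reads, 1.35% to 1.40% against 27.8% to 40.6%, and in Ribo-seq reads that mapped to several places, 65.2% to 66.9% against 19.8% to 31.9%. Their Ribo-seq reads were counted on a longer gene list than those of the other states, and the labels describe their medium without antibiotics. No untreated library shared these differences in mapping and gene list, so the treatment cannot be told apart from them. Their part in the thapsigargin results below was not tested.

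In the RefSeq annotation of GRCh38.p14, the same build (hg38) that the submitters' processing notes name, PLAU (ENSG00000122861) lies at chr10:73908832-73917494, PLAT (ENSG00000104368) at chr8:42174718-42207565 and PLAUR (ENSG00000011422) at chr19:43646095-43670169. SERPINE2 (ENSG00000135919) lies at chr2:223975045-224039286 and SERPINB2 (ENSG00000197632) at chr18:63887705-63903888. The members therefore sit on 5 different chromosomes, and no member neighbours another.

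**Figure D1:**
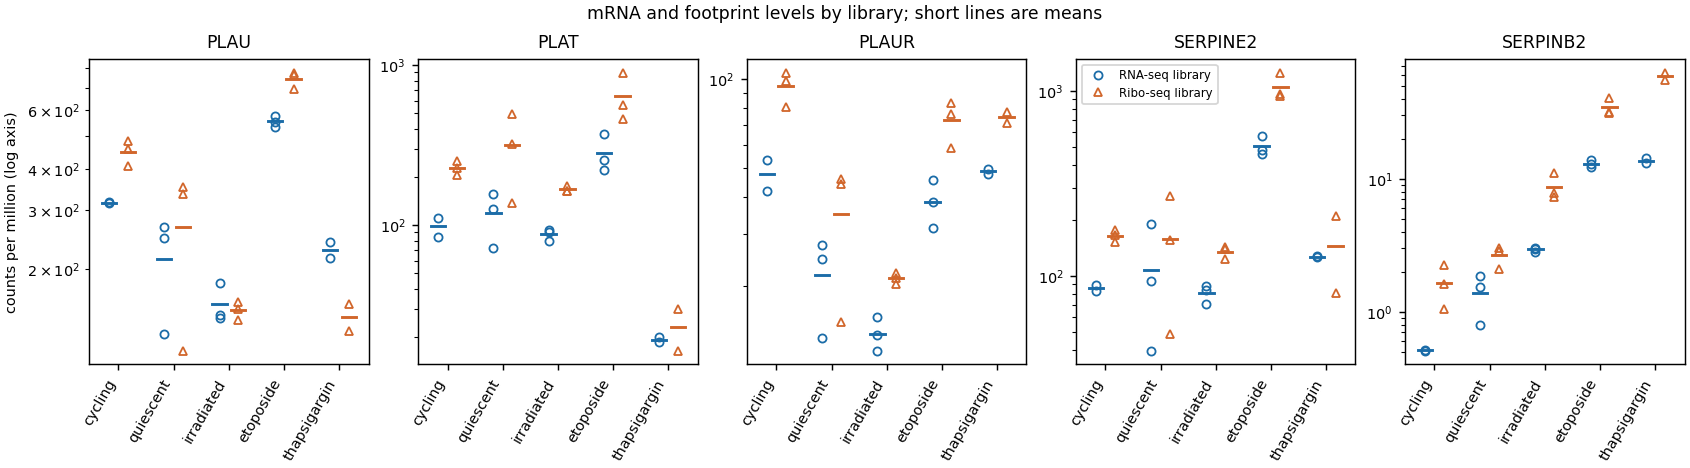
Levels of the 5 members in CPM (vertical log axes, a separate scale for each gene) in the 5 states (horizontal axis). Circles are RNA-seq libraries, triangles Ribo-seq libraries and short lines the means of a state. For SERPINE2 the etoposide libraries lie above all others, with means of 502 CPM in RNA-seq and 1051 CPM in Ribo-seq, and for PLAT the thapsigargin libraries lie below all others, with means of 19.2 and 23.2 CPM.

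PLAU mRNA was most abundant in etoposide-treated cells and least abundant in irradiated cells, a 3.54-fold span between the means of the states. The cycling libraries held 315 and 319 CPM, the quiescent ones 128, 267 and 248, the irradiated ones 146, 182 and 142, the etoposide-treated ones 577, 534 and 552, and the thapsigargin-treated ones 242 and 215. Every etoposide library lay above every other library, and the cycling libraries lay above all quiescent, irradiated and thapsigargin libraries. Irradiated, quiescent and thapsigargin levels overlapped in that order of their means. Ribosome footprints on PLAU followed a similar order, with 408, 484 and 458 CPM in cycling cells, 114, 336 and 352 in quiescence, 152, 159.7 and 140.2 after irradiation, 765, 696 and 775 after etoposide, and 157 and 130.2 under thapsigargin. In footprints the thapsigargin libraries overlapped the irradiated ones. PLAU overlaps another gene. Counts that ignore strand held only 69.2% to 75.4% of its stranded RNA-seq counts and 63.7% to 82.3% of its stranded Ribo-seq counts. The lowest Ribo-seq shares were under thapsigargin, with 183 against 287 and 158 against 248 counts. The part of this in the thapsigargin results for PLAU was not tested.

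PLAT had the widest mRNA range of the proteases, 14.6-fold between the means under etoposide and thapsigargin. Its mRNA stood at 84.5 and 111 CPM in cycling cells, at 71.7, 126 and 156 in quiescent cells and at 91.1, 93.3 and 79.3 in irradiated cells, and these 3 states overlapped. It stood at 368, 219.7 and 254 CPM in etoposide-treated cells, above all others, and at 18.5 and 19.97 in thapsigargin-treated cells, below all others. PLAT footprints were at 206, 252 and 228 CPM in cycling cells, 137, 319 and 492 in quiescence, 162, 175 and 164 after irradiation, and 892, 462 and 564 after etoposide. Under thapsigargin they were at 16.4 and 29.9 CPM, which rests on 30 and 57 counts. The quiescent footprint range reached into the etoposide range, because quiescent replicate 3 lay above etoposide replicate 2.

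PLAUR, the receptor, was lowest in irradiated cells and similar in cycling, etoposide-treated and thapsigargin-treated cells. RNA-seq gave 53.4 and 42.04 CPM in cycling cells, 13.3, 27.4 and 24.7 in quiescence, 13.6, 15.6 and 12.1 after irradiation, 38.3, 45.6 and 31.5 after etoposide, and 47.9 and 49.7 under thapsigargin. No irradiated or quiescent library reached any library of the other 3 states. Ribo-seq gave 99.0, 80.9 and 105 CPM in cycling cells, 15.1, 44.2 and 46.1 in quiescence, 21.3, 22.1 and 20.3 after irradiation, 76.6, 83.4 and 58.5 after etoposide, and 77.2 and 71.4 under thapsigargin. Here the thapsigargin and etoposide ranges overlapped, while the cycling range lay above the thapsigargin range.

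SERPINE2, the secreted inhibitor, was high in 1 state only among the 5 measured. Its mRNA was at 477, 572 and 458 CPM in etoposide-treated cells. It was at 83.2 and 89.9 CPM in cycling cells, 39.5, 93.9 and 190.4 in quiescence, 70.6, 83.5 and 88.5 after irradiation, and 127 and 127 under thapsigargin, and these 4 states overlapped their neighbours in the order of the means. SERPINE2 footprints were at 942, 1251 and 959.9 CPM in etoposide-treated cells, against 152, 166 and 177 in cycling cells, 48.5, 156 and 269 in quiescence, 123.45, 139 and 144 after irradiation, and 80.5 and 210.04 under thapsigargin. The quiescent libraries spread widely, and quiescent replicate 1 was the lowest of its state for SERPINE2, PLAU, PLAT and PLAUR in both assays.

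SERPINB2, the mainly intracellular inhibitor, was at the edge of detection in cycling cells. RNA-seq counted 14 and 10 reads in the cycling libraries, or 0.51 and 0.52 CPM. The level was 1.53, 0.79 and 1.86 CPM in quiescence, 3.03, 2.82 and 2.99 after irradiation, 13.9, 12.9 and 12.2 after etoposide, and 14.2 and 13.1 under thapsigargin. The states therefore stood in 4 separate steps, with the etoposide and thapsigargin ranges overlapping at the top. SERPINB2 footprints were at 2.26, 1.63 and 1.06 CPM in cycling and 3.02, 2.88 and 2.10 in quiescent cells, which overlapped. They were at 7.27, 11.03 and 7.82 CPM after irradiation, 40.8, 31.3 and 31.9 after etoposide, and 62.5 and 55.7 under thapsigargin, with no overlap between these 3 states.

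Differences between states were tested with edgeR's quasi-likelihood F test in a fit of all states over all genes, and a difference was called at a Benjamini-Hochberg adjusted p under 0.05 over all genes tested. All 5 members passed the filter on low counts in both assays, among 13289 protein-coding genes tested in RNA-seq and 11762 in Ribo-seq. Log2 fold changes are given ± SE. All comparisons with cycling cells share the cycling libraries, and those with quiescent cells share the quiescent ones.

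**Figure D2:**
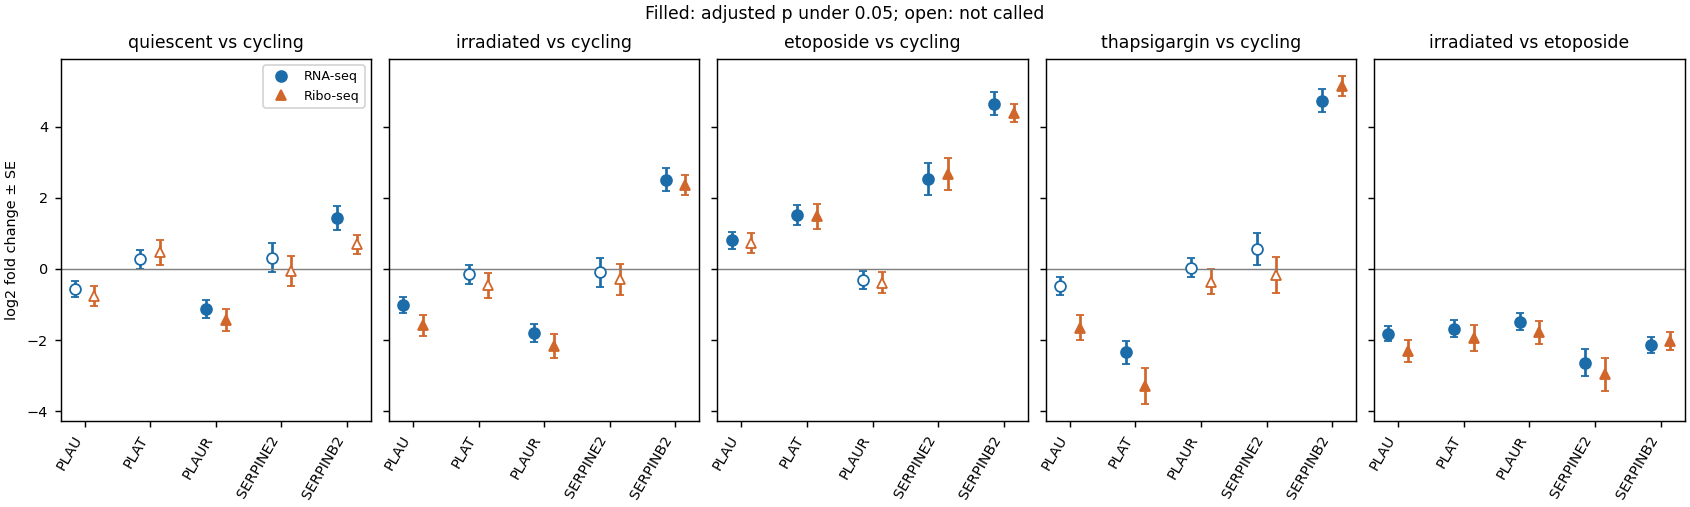
Log2 fold changes (vertical axis, ± SE) of the 5 members (horizontal axis) in 5 comparisons, from RNA-seq (circles) and Ribo-seq (triangles). Filled symbols have an edgeR adjusted p under 0.05. In the comparison of irradiated with etoposide-treated cells all 10 values are filled and below 0, from -1.48 to -2.96.

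Etoposide senescence came with more mRNA for both activators and both inhibitors, while the receptor was not called. RNA-seq called 4 of 5 members higher than in cycling cells and none lower, where 34.5% of all genes tested were called, 16.8% as higher and 17.8% as lower. SERPINB2 rose by 4.65 ± 0.32 (edgeR adjusted p = 1.29e-07), a 25.0-fold difference, and SERPINE2 by 2.54 ± 0.45 (edgeR adjusted p = 0.000701), a 5.80-fold difference. PLAT rose by 1.52 ± 0.29 (edgeR adjusted p = 0.00112), or 2.87-fold. PLAU rose by 0.81 ± 0.24 (edgeR adjusted p = 0.0172), or 1.75-fold, a call that was lost without cycling replicate 1 (adjusted p = 0.104) or without cycling replicate 2 (0.0896). PLAUR stood at -0.31 ± 0.25 and was not called (edgeR adjusted p = 0.353). Footprints gave 3 calls, all higher, where 33.9% of genes were called, 16.8% as higher: SERPINB2 at 4.38 ± 0.26, SERPINE2 at 2.67 ± 0.45 and PLAT at 1.48 ± 0.35. PLAU footprints were at 0.73 ± 0.28 and missed the threshold (edgeR adjusted p = 0.0628), but were called by DESeq2 at 0.75 (adjusted p = 0.0376). A fit of the etoposide and cycling libraries alone called all 5 members in Ribo-seq, with PLAUR lower by -0.39 (adjusted p = 0.0206) and PLAU higher by 0.72 (1.29e-05).

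Irradiation senescence came with less mRNA for urokinase and its receptor and more for SERPINB2. RNA-seq called 3 of 5 members against cycling cells, where 34.9% of all genes were called. PLAUR fell by 1.79 ± 0.25 on the log2 scale (edgeR adjusted p = 0.000108), or 3.47-fold, and PLAU fell by 1.01 ± 0.23 (adjusted p = 0.00354), or 2.02-fold. SERPINB2 rose by 2.51 ± 0.32 (edgeR adjusted p = 5.4e-05), or 5.69-fold. PLAT, at -0.16 ± 0.27 (edgeR adjusted p = 0.694), and SERPINE2, at -0.10 ± 0.41 (0.881), did not pass. Ribo-seq called these 3 members in the same directions, against 40.6% of genes called: PLAUR at -2.16 ± 0.33, PLAU at -1.58 ± 0.29 and SERPINB2 at 2.36 ± 0.29. None of these 6 calls was lost under any alternative. A Ribo-seq fit of the irradiated and cycling libraries alone also called PLAT, at -0.45 (edgeR adjusted p = 0.000843), and SERPINE2, at -0.28 (adjusted p = 0.0226).

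The senescent states were then compared with each other, since both follow DNA damage and were harvested on the 10th day. All 5 members were lower in irradiated than in etoposide-treated cells, in mRNA and in footprints. In RNA-seq all 5 members were called lower, where 22.6% of all genes were called, 12.9% as lower in irradiated cells. In Ribo-seq all 5 were called lower as well, where 22.5% were called, 13.7% as lower. SERPINE2 differed most, by -2.63 ± 0.38 on the log2 scale in RNA-seq (edgeR adjusted p = 0.000451), or 6.21-fold, and -2.96 ± 0.47 in Ribo-seq (adjusted p = 0.000969), or 7.77-fold. SERPINB2 differed by -2.14 ± 0.21 in RNA-seq (edgeR adjusted p = 5.79e-05) and by -2.03 ± 0.24 in Ribo-seq (0.000231). For PLAU the values were -1.82 ± 0.21 (edgeR adjusted p = 0.000131) and -2.31 ± 0.30 (0.000318). For PLAT they were -1.67 ± 0.25 (edgeR adjusted p = 0.000499) and -1.94 ± 0.36 (0.00212). The receptor gene PLAUR gave the smallest differences, -1.48 ± 0.23 (edgeR adjusted p = 0.000683) and -1.78 ± 0.33 (0.00222). Each of these 10 calls held under every alternative run, with adjusted p-values up to 0.0153. Since the cycling libraries cancel in it, this comparison is also the test of whether the responses to radiation and to etoposide differ.

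In quiescent cells the receptor was lower and SERPINB2 higher in mRNA, both with calls that depended on the cycling libraries. RNA-seq called 2 of 5 members against cycling cells, where 15.6% of genes were called. PLAUR fell by 1.13 ± 0.25 on the log2 scale (edgeR adjusted p = 0.00797), or 2.19-fold, and SERPINB2 rose by 1.43 ± 0.34 (adjusted p = 0.0122), or 2.69-fold. The PLAUR call was lost without cycling replicate 1 (edgeR adjusted p = 0.104), and the SERPINB2 call without cycling replicate 1 (0.118) or cycling replicate 2 (0.0748). In a fit of the quiescent and cycling libraries alone neither passed, PLAUR at an edgeR adjusted p of 0.0505 and SERPINB2 at 0.148. PLAU stood at -0.57 ± 0.23 (edgeR adjusted p = 0.117), and was called without quiescent replicate 2, at -0.75 (0.0478). Ribo-seq called PLAUR only, at -1.44 ± 0.30 (edgeR adjusted p = 0.00402), where 22.4% of genes were called, and that call also failed in a fit of the quiescent and cycling libraries alone (0.0514). Leaving out quiescent Ribo-seq replicate 1 added calls for PLAU, at -0.40 (edgeR adjusted p = 0.0173), and PLAT, at 0.81 (0.0194), and leaving out replicate 3 added PLAU (0.0270).

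Against quiescent cells, which are arrested but not senescent, etoposide-treated cells had higher levels of all 5 members in both assays. In RNA-seq 41.7% of genes were called, 21.1% as higher, and in Ribo-seq 35.8%, 19% as higher. The RNA-seq log2 fold changes were 3.22 ± 0.23 for SERPINB2, 2.22 ± 0.38 for SERPINE2, 1.37 ± 0.21 for PLAU, 1.25 ± 0.25 for PLAT and 0.82 ± 0.23 for PLAUR, with edgeR adjusted p-values up to 0.0105. The PLAUR call was lost without etoposide replicate 2 (edgeR adjusted p = 0.0536). In Ribo-seq they were 3.69 ± 0.24 for SERPINB2, 2.73 ± 0.45 for SERPINE2, 1.48 ± 0.29 for PLAU, 1.05 ± 0.30 for PLAUR and 1.02 ± 0.34 for PLAT. PLAT had an edgeR adjusted p of 0.0336 there and was lost without quiescent replicate 2 (0.0797), without etoposide replicate 1 (0.171), without etoposide replicate 3 (0.0516), with no filter on low counts (0.109) and with only these groups fitted (0.146). That last fit also ended the call for PLAUR (edgeR adjusted p = 0.0966).

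Irradiated cells differed from quiescent cells in 1 member only by the test, SERPINB2. It was higher by 1.08 ± 0.24 in RNA-seq (edgeR adjusted p = 0.00656), where 18.7% of genes were called, and by 1.67 ± 0.26 in Ribo-seq (0.000696), where 14.6% were called. The RNA-seq call did not hold in a fit of the irradiated and quiescent libraries alone (edgeR adjusted p = 0.0507). The other 4 members had RNA-seq log2 fold changes from -0.42 for SERPINE2 to -0.66 for PLAUR, and their ranges overlapped through quiescent replicate 1. Without that library RNA-seq called all of them lower in irradiated cells, PLAU at -0.70 (edgeR adjusted p = 0.00138), PLAT at -0.67 (0.0262), PLAUR at -0.91 (0.00287) and SERPINE2 at -0.80 (0.0197), while without quiescent replicate 3 SERPINE2 turned to 0.28 and was not called. Without quiescent replicate 1 of Ribo-seq, PLAU at -1.21 (edgeR adjusted p = 1.31e-06), PLAT at -1.30 (0.000712) and PLAUR at -1.11 (0.000148) were called lower.

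Thapsigargin, within 3 h, came with a fall of tissue plasminogen activator and a rise of SERPINB2. RNA-seq called these 2 of 5 members, where 24.5% of genes were called. PLAT mRNA fell by 2.35 ± 0.31 on the log2 scale (edgeR adjusted p = 0.000166), or 5.09-fold, and SERPINB2 mRNA rose by 4.72 ± 0.32 (adjusted p = 8.37e-07), or 26.3-fold. PLAU, at -0.47 ± 0.25 (edgeR adjusted p = 0.196), SERPINE2, at 0.56 ± 0.45 (0.395), and PLAUR, at 0.03 ± 0.27 (0.948), were not called. Ribo-seq called 3 members, where 44.6% of genes were called. PLAT footprints fell by 3.30 ± 0.50 (edgeR adjusted p = 0.000197), or 9.83-fold, and PLAU footprints fell by 1.65 ± 0.35 (adjusted p = 0.00196), or 3.13-fold. SERPINB2 footprints rose by 5.15 ± 0.29 (edgeR adjusted p = 3.46e-08), or 35.5-fold. All 5 calls held under every alternative run. SERPINE2 footprints, at -0.18 ± 0.50, rested on thapsigargin libraries as far apart as 80.5 and 210.04 CPM, and their log2 fold change was -1.04 or 0.31 when 1 of them was left out.

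Translational efficiency (TE), the ratio of footprints to mRNA for a gene, was compared next, to separate changes of ribosome loading from changes of mRNA. Quiescence, irradiation and etoposide gave no TE call among the members, and 0.00854%, 0.0512% and 0.0683% of 11711 genes tested were called there. Irradiated against etoposide-treated cells gave 0 calls (0%) among all genes with edgeR, 768 genes at an unadjusted p under 0.05, and 6 calls with DESeq2. With a replicate block, which fits libraries of the same number as pairs, 13 genes in place of 8 were called under etoposide. No member had an unadjusted p under 0.05 in these 4 comparisons, a count of 0 in each. The log2 TE changes of the members in these 4 comparisons ran from -0.63 ± 0.46 (SERPINB2, quiescent against cycling) to 0.26 ± 0.45 (PLAT, the same comparison), none of them called. Among the alternatives, only fits of the compared groups alone called a member there, PLAU, at -0.62 for irradiated against cycling (edgeR adjusted p = 0.0151) and -0.52 for irradiated against etoposide-treated cells (0.0304).

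Under thapsigargin urokinase mRNA carried fewer footprints for its level, the only TE call among the members in the fit of all states, and it was lost under several alternatives. The ratio of mean footprint to mean mRNA levels went from 1.42 in cycling to 0.629 in thapsigargin-treated cells for PLAU, from 2.34 to 1.20 for PLAT and from 1.91 to 1.14 for SERPINE2. It went from 1.99 to 1.52 for PLAUR and from 3.20 to 4.32 for SERPINB2. PLAU was the member called, with a log2 TE change of -1.23 ± 0.42 (edgeR adjusted p = 0.0397), where 20.7% of all genes were called and their median change was -0.15. The call was lost with RLE scaling (edgeR adjusted p = 0.0627) and when any 1 of the 9 libraries compared was left out, with adjusted p-values from 0.0581 to 0.101 and log2 TE changes from -1.39 to -1.10. PLAT was at -1.003 ± 0.57 and was not called (edgeR adjusted p = 0.217), but the replicate block called it at -1.03 (0.0133). Deviations from the state means correlated at -0.0058 between same-numbered RNA-seq and Ribo-seq libraries under thapsigargin. In cycling cells they correlated at 0.1416 and 0.1926. The other values were -0.79 ± 0.70 for SERPINE2 (edgeR adjusted p = 0.452), -0.44 ± 0.45 for PLAUR (0.520) and 0.39 ± 0.49 for SERPINB2 (0.612). As background, the other 4 members encode proteins made into the endoplasmic reticulum, whereas SERPINB2 has no cleaved signal peptide and is largely made in the cytosol.

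**Figure D3:**
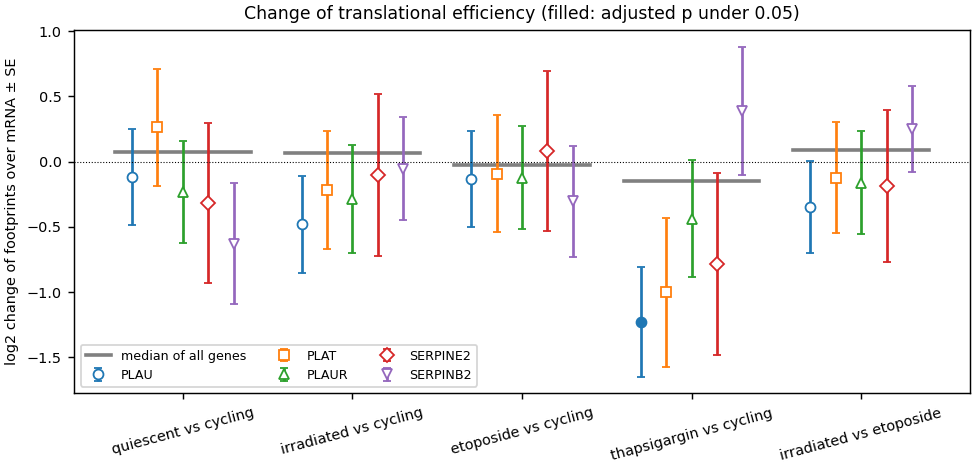
Log2 change of translational efficiency (vertical axis, ± SE) of the 5 members in 5 comparisons (horizontal axis), with the median over all genes tested as a grey bar. The filled circle marks the 1 call, PLAU under thapsigargin at -1.23, where SERPINB2 lies at 0.39 and the median of all genes at -0.15.

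A list of 46 other genes of the system was read out in the same fits, of which 36 were tested in RNA-seq and 33 in Ribo-seq. It was chosen with earlier results of these data known, so its shares are not independent of them. It holds genes that bind plasminogen at the cell surface, clearance receptors and partners of the urokinase receptor, other serpins and protease inhibitors, the tissue factor and thrombin side, and proteins cut by these proteases. PLG, plasminogen itself, had at most 1 count in any RNA-seq library and was not tested. Irradiated cells had 18 of the 36 called lower and 4 called higher than etoposide-treated cells in RNA-seq, a median log2 fold change of -0.71 against 0.06 over all genes, of which 22.6% were called. The 22 calls became 13 without irradiated replicate 1. In Ribo-seq it was 18 lower and 2 higher of 33, a median of -1.20 against 0.06, where 22.5% of all genes were called, and the 20 calls became 11 without irradiated replicate 1. On the tissue factor and thrombin side 6 of 8 genes tested in RNA-seq and 7 of 7 in Ribo-seq were called lower in irradiated cells. TFPI2, an inhibitor of plasmin and of other serine proteases, had the largest change of the list, with mRNA at 6.46 ± 1.25 CPM (SD, n = 3) in irradiated and 288 ± 52.5 CPM (n = 3) in etoposide-treated cells, a difference of -5.48 ± 0.53 on the log2 scale (edgeR adjusted p = 5.42e-05). F3 encodes tissue factor, the receptor that starts clotting, and its footprints were at 125 ± 15.4 against 771 ± 131 CPM, a log2 difference of -2.62 ± 0.32 (edgeR adjusted p = 0.000237). HGF encodes hepatocyte growth factor, whose precursor urokinase can cut, and its footprints were at 46.1 ± 9.40 against 310.3 ± 13.2 CPM, or -2.77 ± 0.36 (edgeR adjusted p = 0.000331). Among clearance receptors and partners 7 of 9 in RNA-seq and 6 of 8 in Ribo-seq were called lower in irradiated cells, and none higher. The genes for binding of plasminogen at the cell surface did not share this direction, with 1 of 5 in RNA-seq and 2 of 5 in Ribo-seq called higher, none lower, and medians of 0.13 and 0.17. Of the other serpins and inhibitors 3 were called higher and 3 lower of 11 in RNA-seq, a median of -0.18, and 0 higher and 3 lower of 10 in Ribo-seq, a median of 0.02. Of the proteins cut by these proteases 2 of 3 were called lower in each assay. VTN, which encodes vitronectin, was among the partners called lower in RNA-seq, at 0.52 ± 0.21 against 2.19 ± 0.49 CPM. SERPINI1, which encodes neuroserpin, an inhibitor of tissue plasminogen activator, was lower in irradiated cells as well, at 0.59 ± 0.30 against 3.39 ± 0.46 CPM (edgeR adjusted p = 0.00245).

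Against cycling cells the list gave 11 genes called higher and 5 lower under etoposide in RNA-seq, or 44.4% of those tested against 34.5% of all genes. After irradiation it gave 3 higher and 11 lower, or 38.9% against 34.9% of all genes, a share near that of all genes. The medians were 0.23 under etoposide and -0.28 after irradiation. TFPI2 mRNA was at 27.3 ± 4.48 CPM (SD, n = 2) in cycling cells and rose by 3.40 ± 0.56 under etoposide (edgeR adjusted p = 0.000379). A2M, which encodes the broad protease trap alpha-2-macroglobulin, was higher in both senescent states and in quiescence, at 0.18 ± 0.04 CPM in cycling cells, 1.34 ± 0.70 in quiescence, 5.04 ± 0.89 after irradiation and 2.20 ± 0.71 after etoposide. F2RL1, which encodes protease-activated receptor 2, fell in irradiated cells from 37.1 ± 0.53 to 5.06 ± 0.80 CPM, by 2.87 ± 0.28 on the log2 scale (edgeR adjusted p = 5.51e-06). Footprints gave 11 higher and 7 lower under etoposide, or 54.5% against 33.9% of all genes, and 2 higher and 14 lower after irradiation, or 48.5% against 40.6%. Quiescence gave 3 higher and 5 lower in RNA-seq and 0 higher and 9 lower in Ribo-seq, with 2 higher at an unadjusted p under 0.05, where 15.6% and 22.4% of all genes were called. The 8 RNA-seq calls became 2 without cycling replicate 1, 3 without cycling replicate 2 and 3 when no other states were fitted, and the 9 Ribo-seq calls became 4 when no other states were fitted. Against quiescent cells, irradiated cells had 1 higher and 7 lower in RNA-seq, SERPINF1 among the latter at 18.3 ± 2.44 against 66.5 ± 15.1 CPM, and etoposide-treated cells had 13 higher and 3 lower. These are 22.2% and 44.4% of those tested, against 18.7% and 41.7% of all genes, and the 8 calls of irradiated cells became 5 without quiescent replicate 2, without irradiated replicate 1 or without irradiated replicate 3. SERPINF1 encodes a secreted serpin that does not inhibit proteases.

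Under thapsigargin 12 genes of the list were called lower and 3 higher in RNA-seq, and 18 lower and 5 higher of 33 in Ribo-seq, where 24.5% and 44.6% of all genes were called. The 15 RNA-seq calls became 9 without cycling replicate 2. The Ribo-seq median was -1.61 as fitted, and -1.09 with the 5 genes that had 0 counts under thapsigargin set at the bound that 3 counts over the group allow, against -0.08 over all genes. HGF mRNA fell from 104.6 ± 13.3 to 16.0 ± 4.89 CPM, by 2.71 ± 0.28 on the log2 scale (edgeR adjusted p = 2.23e-05). PDGFD, a growth factor that urokinase activates, fell in mRNA from 19.8 ± 3.38 to 5.34 ± 1.59 CPM, and its footprints had 0 counts under thapsigargin and 477 in the cycling libraries, which makes them at least 17.8-fold lower. SERPINB9, an intracellular inhibitor of granzyme B, had 0 footprint counts against 303, at least 11.3-fold lower, and CLEC3B, which encodes the plasminogen-binding protein tetranectin, had 0 against 104, at least 3.88-fold lower. The thapsigargin footprints of these genes were counted on the longer gene list, and its part in the counts of 0 was not tested. TE was called lower for 8 and higher for 2 genes of the list under thapsigargin, a median of -1.09 against -0.15 over all genes, of which 20.7% were called, and the 10 calls became 5 without cycling RNA-seq replicate 1. In the other 4 comparisons TE was called for 0 genes of the list, where up to 3 had an unadjusted p under 0.05, but fits of the groups compared alone called 7 for irradiated against cycling and 9 for irradiated against etoposide-treated cells.

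**Figure D4:**
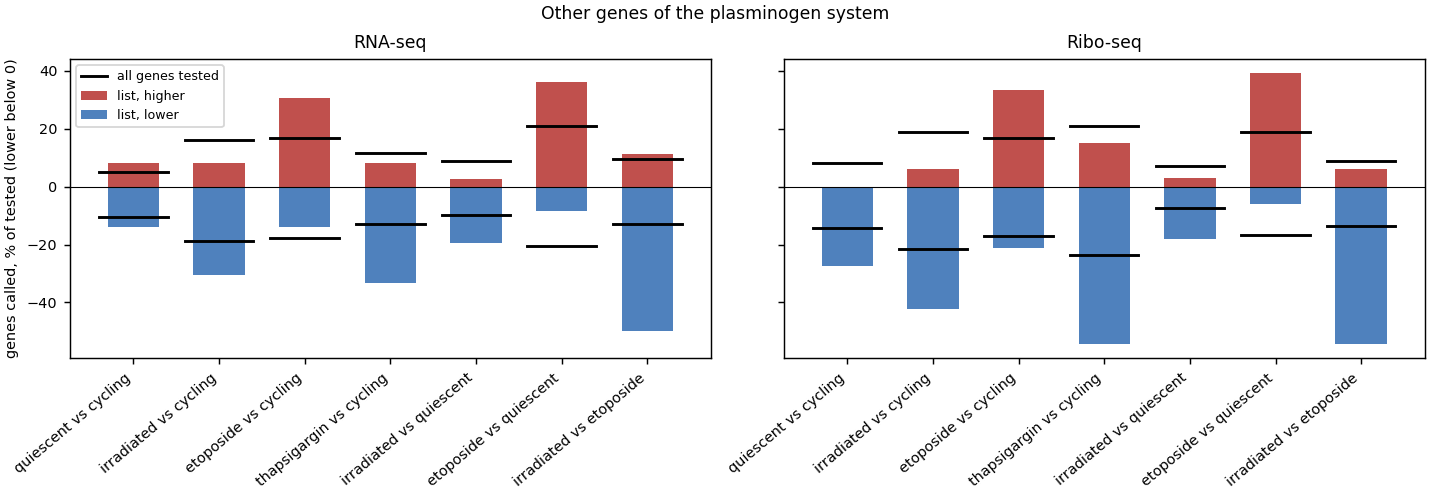
Share of the 46 listed genes of the plasminogen system called higher (bars above 0) or lower (bars below 0), in percent of those tested (vertical axis), in 7 comparisons (horizontal axis), with the share of all genes tested as black lines. For irradiated against etoposide-treated cells 18 of 36 genes in RNA-seq and 18 of 33 in Ribo-seq were called lower, against 12.9% and 13.7% of all genes.

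The genes whose mRNA followed each member most closely over the 13 RNA-seq libraries were found by the root mean square difference of log2 CPM, each gene centred on its own mean. For PLAU they were APMAP (0.15), TMEM156 (0.20) and P4HTM (0.21), where the median over all other genes was 0.82, and over the 14 Ribo-seq libraries APMAP stood at rank 28 and P4HTM at rank 489 of 11761 genes from PLAU. For PLAT they were HGF (0.29), RGCC (0.31) and COL4A5 (0.35), with a median of 1.25. HGF is on the list above, and in Ribo-seq these stood at ranks 166, 731 and 37 from PLAT. For PLAUR they were SLC35A2 (0.16), SLC5A3 (0.17) and CD47 (0.19), with a median of 0.87, and in Ribo-seq these stood at ranks 14, 18 and 67. For SERPINE2 they were VIT (0.40), GPC4 (0.46) and BMP6 (0.49), with a median of 1.21, and in Ribo-seq GPC4 stood at rank 217 and BMP6 at rank 142. For SERPINB2 they were C15orf48 (0.64), RRAGD (0.68) and ARFGEF3 (0.71), with a median of 1.76, and C15orf48 stood at rank 4 in Ribo-seq. TMEM156, VIT, RRAGD and ARFGEF3 did not pass the Ribo-seq filter on low counts and have no rank there. Among the members, PLAUR and PLAU, the receptor and its ligand, were 0.57 apart, which put PLAUR at rank 929 of 13288 from PLAU. PLAU and SERPINE2 were 0.62 apart, which put PLAU at rank 44 from SERPINE2. SERPINB2 and PLAT were farthest apart, at 2.15, and under thapsigargin PLAT was at its lowest and SERPINB2 at its highest mean level.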

How the data were processed

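The authors deposited, for each library, unnormalized read counts by gene in the layout that STAR writes, on each strand and on both together. Per the submitters' processing notes, bcl2fastq, STAR 2.7.10b, DESeq2 1.36.0 and the build hg38 were used. The annotation and trimming are not given in the sources used here. Per the labels' protocols, RNA-seq used a stranded TruSeq kit and Ribo-seq a NEB small RNA kit after RNase I digestion, for which the labels give differing times. Reads that map to several places, to several genes or to no gene are on summary lines of the deposited files and were left out.

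The sense strand was taken by kit, the reverse column in RNA-seq and the forward column in Ribo-seq, over the 60534 identifiers shared by both gene lists in the files, which held 99.6% to 99.97% of a library's gene counts. The opposite strand held at most 4.11% of the sense and opposite counts together for any member in any library. Protein-coding genes (RefSeq, 19303 identifiers) kept by filterByExpr entered edgeR 4.0.16 under R 4.3.3 (TMM, robust quasi-likelihood F test, two-sided), with all states in 1 fit for each assay and, for TE, the interaction of assay and state over 27 libraries. The biological coefficient of variation was 0.159 in RNA-seq, 0.168 in Ribo-seq and 0.159 in the joint fit. The fits were run on simulated counts with known folds between etoposide-treated and cycling cells. The simulation gave every gene the same spread, so it does not cover genes or libraries with a larger one. Each library was counted as 1 replicate. Replicates differed by more than sampling noise, with chi-square over degrees of freedom between 1.82 and 145. That spread does not show whether they came from separate cultures. Replicate numbers were checked for pairing by the correlation of deviations from the state means. Every same-numbered pair was over 0.1 for cycling with quiescent Ribo-seq (0.154 to 0.272) and for RNA-seq with Ribo-seq of etoposide-treated cells (0.134 to 0.382). The same held for RNA-seq with Ribo-seq of cycling cells (0.1416 to 0.1926). It also held in RNA-seq for thapsigargin with cycling (0.1735) and with etoposide libraries (0.1119 to 0.4735). In a state of 2 libraries the deviations mirror each other. Both pairs of thapsigargin with cycling RNA-seq libraries therefore give the same value, and pairs that involve such a state are not independent in the counts that follow. Over all sets, same-numbered pairs over 0.1 were 9 of 23 of RNA-seq libraries, 6 of 26 of Ribo-seq libraries and 6 of 13 of RNA-seq with Ribo-seq libraries. Among differently numbered pairs they were 13 of 44, 5 of 52 and 2 of 24. The labels name no shared batch for a number.

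The members and gene lists were chosen with earlier results of these data known. Named genes were the 5 members, at most 3 called genes of the pathway list per comparison with the largest absolute log2 fold change, and the 3 nearest genes of each member. Alternatives were RLE scaling, DESeq2 1.42.0, no filter, counts of both strands, all genes, leaving out the thapsigargin libraries, fitting only the groups compared, a replicate block, and leaving out each library.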

Additional observations from a re-analysis of the deposited data

Results flagged for a closer look

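The responses of all 5 members to radiation and to etoposide differed in both assays, by the test of irradiated against etoposide-treated cells, in which the shared cycling libraries cancel. The RNA-seq differences in log2 fold change (irradiated minus etoposide-treated) were -1.82 for PLAU, -1.67 for PLAT, -1.48 for PLAUR, -2.63 for SERPINE2 and -2.14 for SERPINB2. The Ribo-seq differences were -2.31 for PLAU, -1.94 for PLAT, -1.78 for PLAUR, -2.96 for SERPINE2 and -2.03 for SERPINB2. For SERPINB2 both treatments raised the level over cycling cells and etoposide raised it more, with mean mRNA levels of 2.95 CPM after radiation and 12.99 CPM after etoposide against 0.52 CPM in cycling cells. For PLAU the called mRNA changes against cycling cells had opposite signs, with means of 157 CPM after radiation and 555 CPM after etoposide against 317 CPM. The etoposide call needed both cycling libraries, and the log2 fold change was 0.795 or 0.81 with 1 of them left out. PLAU footprints under etoposide missed the threshold (edgeR adjusted p = 0.0628).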

How the results depend on the processing

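Over 1405 values of the members under the alternatives, no called value changed sign, 26 lost a call and 22 gained one, and 27 values of results that were not called in the fit of all states changed sign. Of 95 results, 69 kept their side of the threshold throughout. Fitting only the groups compared changed the number of members called from 2 to 0 for quiescent against cycling cells in RNA-seq and from 1 to 0 in Ribo-seq, from 1 to 0 for irradiated against quiescent cells in RNA-seq, from 3 to 5 for both irradiated and etoposide-treated against cycling cells in Ribo-seq, from 5 to 3 for etoposide-treated against quiescent cells in Ribo-seq, and from 0 to 1 in TE for irradiated cells against cycling and against etoposide-treated cells. DESeq2 called 2 members in place of 1 for irradiated against quiescent cells in both assays and for quiescent against cycling cells in Ribo-seq, and 4 in place of 3 for etoposide-treated against cycling cells in Ribo-seq. For TE under thapsigargin, RLE scaling called 0 members in place of 1 and the fits that left out a library called 0 in every case. Leaving out each library gave 0 to 3 calls for quiescent against cycling cells in RNA-seq and 1 to 3 in Ribo-seq, and 1 to 5 calls for irradiated against quiescent cells in RNA-seq and 1 to 4 in Ribo-seq. The cause of these changes was not tested.

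The replicate block, which treats libraries of the same number as a pair, called 2 members in place of 1 for TE under thapsigargin by adding PLAT at -1.03 (edgeR adjusted p = 0.0133), and changed no other call of a member. Same-numbered RNA-seq and Ribo-seq libraries under thapsigargin correlated at -0.0058 in their deviations from the state means. In TE over all genes the block gave 0 calls in place of 1 for quiescent, 3 in place of 6 for irradiated and 13 in place of 8 for etoposide-treated against cycling cells, and 1 in place of 0 for irradiated against etoposide-treated cells.

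Over all genes, fitting only the groups compared gave 853 calls in place of 2068 for quiescent and 1506 in place of 3254 for thapsigargin-treated against cycling cells in RNA-seq. In Ribo-seq it gave 6022 in place of 3986 for etoposide-treated against cycling and 4135 in place of 2652 for irradiated against etoposide-treated cells, and the fit without the thapsigargin libraries gave 2577 in place of 1713 for irradiated against quiescent cells. In TE it gave 758 in place of 6 for irradiated and 28 in place of 8 for etoposide-treated against cycling, 606 in place of 0 for irradiated against etoposide-treated, and 1053 in place of 2427 for thapsigargin-treated against cycling cells, where DESeq2 gave 32, 40, 6 and 2911. RLE scaling split the 6 TE calls for irradiated against cycling cells as 4 higher and 2 lower, in place of 5 and 1. Leaving out 1 library gave 707 to 2242 calls for quiescent, 2778 to 3903 for irradiated, 2611 to 3993 for etoposide-treated and 1591 to 3405 for thapsigargin-treated against cycling cells in RNA-seq, 1440 to 2814 for irradiated against quiescent and 1841 to 2313 for irradiated against etoposide-treated cells. In Ribo-seq it gave 1559 to 2933 for quiescent against cycling, 939 to 2388 for irradiated against quiescent and 1500 to 2044 for irradiated against etoposide-treated cells, and in TE 1558 to 3772 under thapsigargin.

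The thapsigargin Ribo-seq libraries were the shallowest, at 1.94 and 2.04 (in 1e6 counts), and SERPINB2 had as few as 10 counts in a library of either assay, which limits the precision of its folds. Cycling RNA-seq had 2 libraries only.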
